A study of Mus musculus with 4 samples.

Results

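The BCL2 family was followed here in chemically transformed mouse fibroblasts with and without the ketone phorone. Its members were taken by name: every gene probe, outside the array's control spots, annotated as Bcl2, Bcl2l1, Mcl1, Bax, Bak1, Bcl2l11, Bmf, Bbc3, Pmaip1 or Bid. These 10 genes had 18 of the 40628 gene probes on the array, and 17 of the 18, from 9 genes, were bright enough to be tested. Where a gene had several probes they are called a, b and c, with a the brightest.

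The study used 4 one-colour arrays, 2 from transformed C3H10T1/2 cells exposed to 2 mM phorone (phorone) and 2 from transformed C3H10T1/2 cells without it (control). C3H10T1/2 is a contact-inhibited mouse embryo fibroblast line used to score chemical transformation in culture. Both groups had been transformed in the same way, with 3-methylcholanthrene, a carcinogenic hydrocarbon, at 2.5 µg/ml over 2 days, a gap of 4 days, and the tumour-promoting phorbol ester TPA at 100 ng/ml over 2 weeks, and had then been kept in plain medium for 4 weeks. Phorone is an unsaturated ketone that reacts with glutathione and is used to deplete it. The length and vehicle of the phorone exposure are not stated in the labels, and no untransformed cells were among these arrays. Whether the 2 samples of a group were separate cultures is not stated either, so p-values here reflect spread that may be technical only.

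Values are log2 of the processed signal minus the array's own 75th percentile, so 0 is a signal at that percentile, and a difference of 1 is a doubling. The arrays held 51.1% and 52.2% of spots well above background with phorone and 52.3% and 52.7% in control, and no spot was saturated. The phorone arrays correlated with each other at r = 0.995 and the control arrays at r = 0.987 across gene probes, against 0.936 to 0.951 between groups; probes are not independent replicates. Both phorone arrays lay in one row of the slide and both control arrays in the other, and an effect of the row cannot be told apart from that of phorone. The fibroblast label was checked against 10 markers, all of which were tested. In limma 0 were higher and 6 lower with phorone, or 0 and 8 at an unadjusted p below 0.05 (median log2 fold change -1.31). Lum, among those lower, was above background in control alone and so entered the test through the group where it is high. Col1a2 was at 7.54 ± 0.03 with phorone and 8.66 ± 0.13 in control (SD, n = 2 each). Its fall was the smallest of the 6, and that of Col3a1 was the largest (log2 fold change -3.38). Col1a1, Fn1, Thy1 and Vim were not called on their brightest probes, though dimmer Col1a1 probes were lower. Of the markers of other cell types, 1 of 6 epithelial, 2 of 6 leukocyte and 1 of 5 endothelial genes were bright enough to be tested, and Epcam, Cdh1, Ptprc, Adgre1, Pecam1 and Cdh5 were not. Cd68, a lysosomal protein abundant in macrophages, was the marker outside the fibroblast list that was higher (log2 fold change 1.26). Tek, an endothelial receptor above background in control alone, was at least 1.68-fold lower in the processed signal. In RNA from whole cultures, fewer cells of a type and less RNA per cell cannot be told apart, and the part of these marker changes in the results below was not tested.

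BCL2 family proteins decide whether the outer mitochondrial membrane is opened during apoptosis. Bax and Bak are the effectors that form the pores, Bcl-2, Bcl-xL and Mcl-1 bind and hold them, and the BH3-only proteins Bim, Bmf, Puma, Noxa and Bid carry stress signals by binding the guardians or activating the effectors. Many members are controlled by transcription, splicing and protein turnover, so a transcript level need not follow the protein.

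The sequences that matter most are those of the probes of Bcl2l11 (Bim) and Bmf, because the probes of Bcl2l11 were called in opposite directions and those of Bmf were not all called. Genome coordinates are not given for the probes, which the files mark as unmapped. Whole probes of 60 bases are shown where one reading frame gives the known protein, and the first 30 bases otherwise. In Bcl2l11 b the capitals mark the codons of the glycine and aspartate at the core of the BH3 region, the helix by which Bim binds its partners.
Bcl2l11 a: aacagcactgatctctgtatagtccccatc
Bcl2l11 b: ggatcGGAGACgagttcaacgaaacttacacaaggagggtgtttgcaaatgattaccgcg
Bmf a: ttttttggttctttatatgtatacatgtgt
Bmf b: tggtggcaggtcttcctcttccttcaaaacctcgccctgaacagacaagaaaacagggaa
Bmf c: acaggattattcaaggactttggaggagaa
Bcl2l11 a and b carry the same RefSeq accession in the array's annotation, as do the 3 Bmf probes. Bcl2l11 b lies in coding sequence. Bcl2l11 a has a stop codon in each of its 3 forward reading frames over its 60 bases, and so is no stretch of coding sequence read in that direction.

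With phorone, 5 of the family's 6 called probes belonged to BH3-only genes, 1 of them (Bmf c) measured above background in control alone. Bcl2l11 a fell 3.02-fold while Bcl2l11 b, over the BH3 region, rose 2.48-fold. Bmf a fell 2.89-fold and Bid 1.59-fold. Among the guardians Bcl2 a fell 1.45-fold, and no probe of Bcl2l1, Mcl1, Bax, Bak1 or Bbc3 passed the test. Of the 17 tested member probes, 1 was higher and 5 were lower at an adjusted p below 0.05 in limma, with p-values adjusted over all 24207 gene probes. Much of the transcriptome differed between the groups, since 45.8% of all gene probes were called, 25.5% higher and 20.3% lower. The family's 6 called probes of 17 are no larger a share than that of all probes. Bmf c, one of the 5 lower, was above background in control alone and so entered the test through the group where it is high. Without it 1 of 16 was higher and 4 lower. The median log2 fold change was -0.12 over the 17 probes and 0.11 over all gene probes, and 12 of the 17 lay below the median of all. The groups did not overlap for 12 of the 17, against 77.9% of all gene probes. By role, 0 of 7 guardian probes were higher and 1 lower, 0 of 3 effector probes were called by limma, and 1 of 7 BH3-only probes was higher and 4 lower. At an unadjusted p below 0.05 in limma, 0 guardian probes were higher and 2 lower, and 0 effector probes passed. Without Bmf c, 1 of 6 BH3-only probes was higher and 3 lower.

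**Figure D1:**
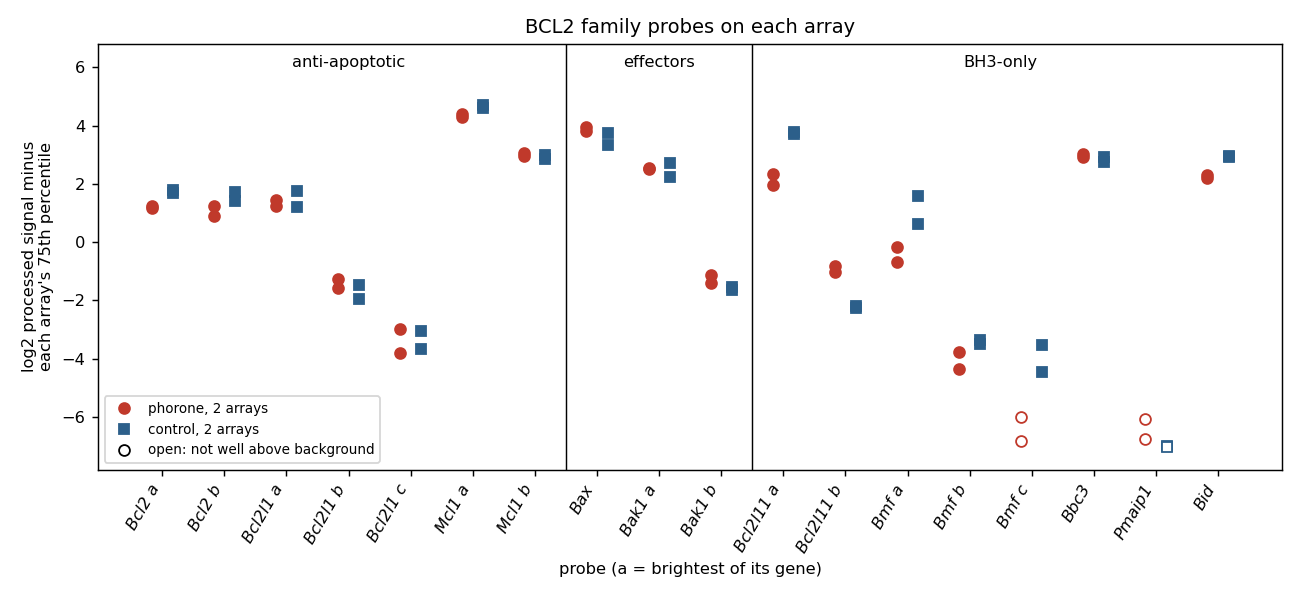
Log2 processed signal minus each array's 75th percentile (vertical axis) for the 18 member probes (horizontal axis), with 1 point per array, phorone circles left of control squares, and open symbols where a spot was not well above background. The groups stand well apart for Bcl2l11 a and b, in opposite directions, and overlap for the 3 Bcl2l1 probes.

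**Figure D2:**
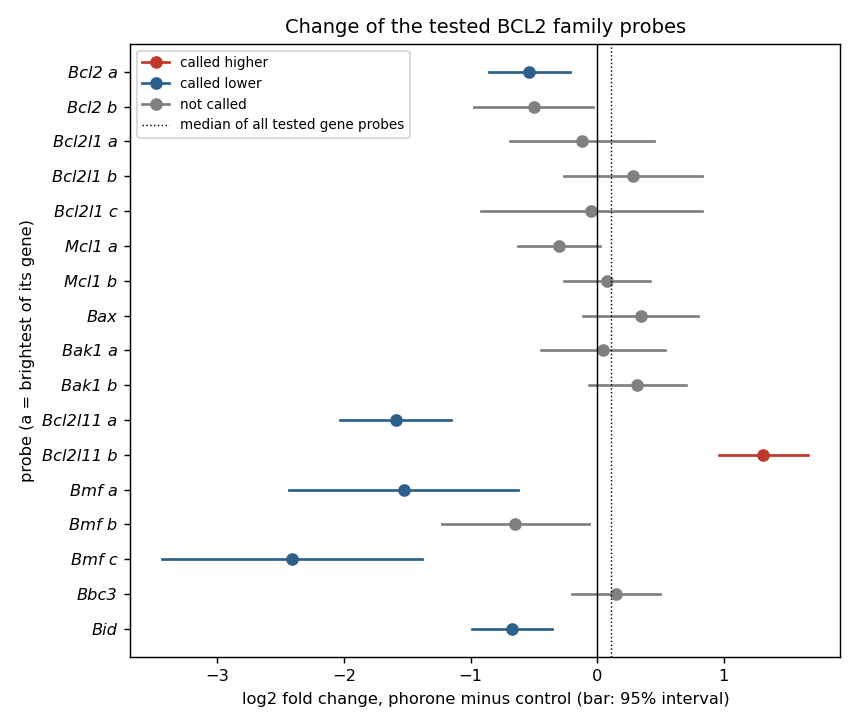
Log2 fold change, phorone minus control (horizontal axis), of the 17 tested member probes (rows), as points with 95% intervals from limma and a dotted line at the median of all tested gene probes, 0.11. Bmf c, not above background with phorone, is drawn at its value in the processed signal. Bcl2l11 b is the only probe called higher, and of the guardians and effectors only Bcl2 a was called.

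Bcl2 encodes the founding guardian of the family. Bcl2 a, in coding sequence, was at 1.24 and 1.19 on the phorone arrays and 1.70 and 1.79 on the control arrays. Both phorone values lay below both control values, and the log2 fold change was -0.54 (SE 0.13, 95% interval -0.86 to -0.22, limma adjusted p = 0.0222). Bcl2 b was at 1.23 and 0.91 with phorone and 1.73 and 1.42 in control, again without overlap, with a log2 fold change of -0.50 (SE 0.18) that did not pass the test (limma adjusted p = 0.0768). The array's annotation assigns the 2 probes to different RefSeq transcripts of Bcl2. The difference between their log2 fold changes was 0.03 (95% interval -0.50 to 0.56, limma adjusted p = 0.934). The call of Bcl2 a was lost under 6 of 14 other settings, among them with limma without control replicate 2 (adjusted p = 0.0552), without phorone replicate 1 (adjusted p = 0.0975) or without phorone replicate 2 (adjusted p = 0.138), with no filter on dim probes (adjusted p = 0.0673), and with the arrays scaled to their spike-in probes (log2 fold change -0.10, adjusted p = 0.883). Bcl2 b was called after normexp background correction (limma adjusted p = 0.0402).

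Bcl2l1, which encodes Bcl-xL and by splicing the pro-apoptotic Bcl-xS, had 3 probes. Bcl2l1 a was at 1.46 and 1.25 with phorone and 1.20 and 1.75 in control. Bcl2l1 b, in coding sequence, was at -1.28 and -1.58 with phorone and -1.95 and -1.48 in control. Bcl2l1 c, which was dim, was at -2.99 and -3.80 with phorone and -3.66 and -3.04 in control. The groups overlapped for all 3, and the log2 fold changes of -0.12, 0.28 and -0.05 (limma adjusted p = 0.685, 0.325 and 0.918) had 95% intervals of -0.69 to 0.45, -0.27 to 0.82 and -0.92 to 0.82. The intervals of Bcl2l1 a and c include a fall of the size seen in Bcl2 a, and that of Bcl2l1 b does not. The signs of Bcl2l1 a and c turned under other settings, among them without control replicate 2 (0.16 and 0.26).

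Mcl1, a guardian whose protein turns over fast, gave bright signals. Mcl1 a was at 4.40 and 4.31 with phorone and 4.70 and 4.62 in control, with no overlap, and its log2 fold change of -0.30 (SE 0.13, 95% interval -0.62 to 0.02) did not pass the test (limma adjusted p = 0.109). Mcl1 b was at 2.94 and 3.04 with phorone and 2.99 and 2.85 in control, and the groups overlapped (log2 fold change 0.08, SE 0.13, limma adjusted p = 0.665). Under spike-in scaling, which moved all gene probes upward, the log2 fold change of Mcl1 a was 0.14.

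The effectors had 3 probes, none of them called. Bax was at 3.96 and 3.81 with phorone and 3.35 and 3.74 in control, so both phorone values lay above both control values, but the control arrays differed by more than the gap between groups. Its log2 fold change was 0.34 (SE 0.18, 95% interval -0.11 to 0.79, limma adjusted p = 0.169). Bak1 a was at 2.52 and 2.55 with phorone, between the 2.25 and 2.73 of the control arrays, with a log2 fold change of 0.04 (95% interval -0.45 to 0.53, limma adjusted p = 0.866). Its sign turned without control replicate 1 (-0.19) and, at a value close to 0, with quantile normalization. Bak1 b was at -1.13 and -1.40 with phorone and -1.63 and -1.54 in control, without overlap (log2 fold change 0.32, SE 0.15, limma adjusted p = 0.140).

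Bcl2l11 encodes Bim, which binds all the guardians and comes in splice forms of different length. Bcl2l11 a was at 2.34 and 1.97 on the phorone arrays and 3.78 and 3.71 on the control arrays. Before scaling between arrays, its processed signals were 2857 and 2237 against 9645 and 9799. Its log2 fold change was -1.59 (SE 0.17, 95% interval -2.03 to -1.16, limma adjusted p = 0.00254). Bcl2l11 b was at -1.02 and -0.81 with phorone and -2.19 and -2.26 in control, with unscaled signals of 278 and 326 against 153 and 156. It rose by 1.31 on the log2 scale (SE 0.14, 95% interval 0.96 to 1.67, limma adjusted p = 0.00246). No array of one group reached the range of the other for either probe. Bcl2l11 a was called lower under all 14 alternative settings (log2 fold change -1.78 to -1.16) and Bcl2l11 b higher under the 13 that held it (1.00 to 1.75). These settings included each other scaling and filter and the loss of each array in turn. When an array is left out its group has 1 array, which limma then assumes to vary like the other group, here and in all such values. Bcl2l11 b is the dimmer of the pair, and was well above background on all 4 arrays.

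To ask whether probes of one gene changed by different amounts, the value of each probe minus that of the brightest probe of its gene was taken on every array and compared between groups. The scaling of the arrays cancels in this difference. Bcl2l11 b minus a was -3.36 and -2.78 with phorone and -5.97 and -5.97 in control, so the distance between the probes was much smaller on both phorone arrays. The change of 2.90 (SE 0.23, 95% interval 2.29 to 3.52) passed the test (limma adjusted p = 0.00817), as did 21.5% of the 7174 such pairs. Probes called in opposite directions, as those of Bcl2l11 were, occurred in 3.71% of the 5612 genes with more than 1 kept probe. Without phorone replicate 2 the change was 2.61 and just missed the threshold (limma adjusted p = 0.0555), in a limma fit that called 0 of all pairs, although 1058 pairs at positive and 772 at negative differences had an unadjusted p below 0.05. Which Bcl2l11 transcripts each probe detects was not tested.

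Bmf encodes a BH3-only protein that is tethered to the cytoskeleton by dynein light chain. Bmf a was at -0.17 and -0.67 with phorone and 1.58 and 0.64 in control, with unscaled signals of 499 and 361 against 2099 and 1163. The control arrays lay far apart, but both above the phorone arrays, and the log2 fold change was -1.53 (SE 0.35, 95% interval -2.44 to -0.62, limma adjusted p = 0.0217). Bmf b, in coding sequence and dim, was at -4.36 and -3.77 with phorone and -3.49 and -3.35 in control. Its log2 fold change of -0.65 (SE 0.23) did not pass the test (limma adjusted p = 0.0691). Bmf c was not well above background on either phorone array, where it stood at -6.00 and -6.81, and was at -3.54 and -4.45 in control. On phorone replicate 2 the scanner software used a surrogate value for 1 member spot. The probe of that spot was not recorded, but Bmf c was the dimmest member there, so -6.81 may not be a reading. The means were -6.41 with phorone and -4.00 in control (limma adjusted p = 0.00822). Since Bmf c entered the test only through control, its p is no support for a change. In group means of the processed signal it was at least 1.59-fold lower with phorone (0.67 on the log2 scale). This bound uses, in place of the dim phorone readings, the lowest signals that counted as above background. It leaves out the spread of the control arrays, and normexp correction gave a smaller log2 fold change (-0.43). Bmf a and b, the probes above background in both groups, were both lower in mean with phorone. Their groups did not overlap, which also held for 77.9% of all gene probes in either direction.

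The call of Bmf a was lost with spike-in scaling (log2 fold change -1.09, limma adjusted p = 0.0596) and with no filter on dim probes (limma adjusted p = 0.0742). Bmf b was called without phorone replicate 2 (-0.94, limma adjusted p = 0.0200) and where probes had to be well above background on all arrays (limma adjusted p = 0.0424). It stood at -0.35 without phorone replicate 1, at -0.16 after normexp correction and at -0.21 with spike-in scaling (limma adjusted p = 0.285, 0.325 and 0.744). Bmf c minus a differed between groups by -0.88 (limma adjusted p = 0.0261), but Bmf c was below background with phorone, the call was lost when any 1 of the 4 arrays was left out (limma adjusted p = 0.0518 to 0.105), and the sign turned after normexp background correction (0.99). Bmf b minus a differed by 0.88 (95% interval -0.60 to 2.37, limma adjusted p = 0.347). Bmf c itself changed by -0.43 on the log2 scale after normexp correction, against -2.41 in the processed signal.

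**Figure D3:**
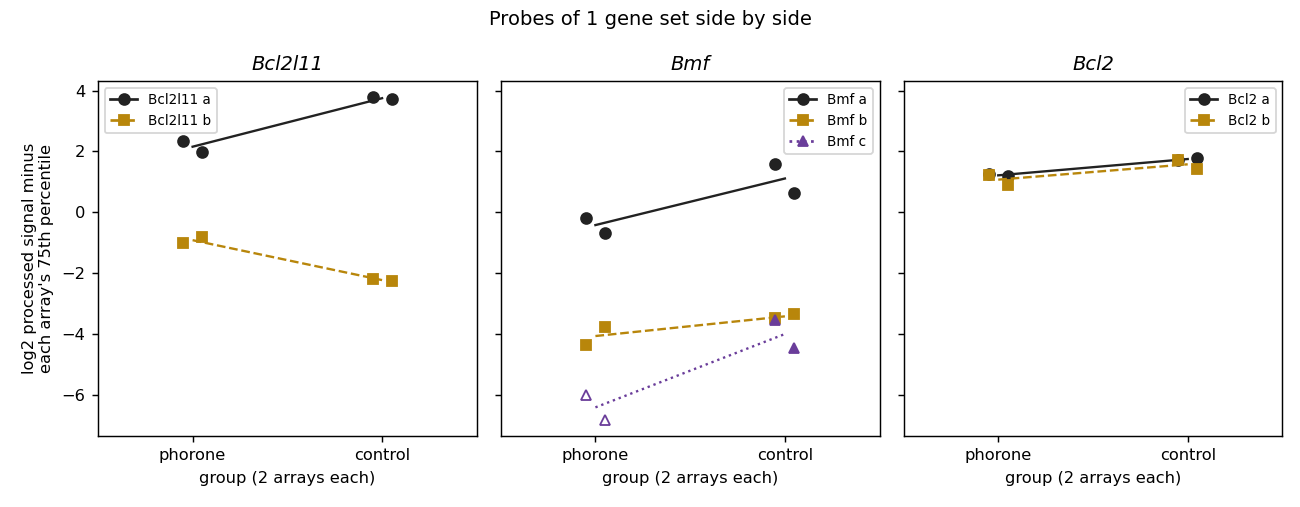
Log2 processed signal minus each array's 75th percentile (vertical axis) for the probes of Bcl2l11, Bmf and Bcl2, with 1 point per array, lines joining the group means, and open symbols where a spot was not well above background. The lines of Bcl2l11 a and b run in opposite directions, those of the Bmf probes run the same way, and those of the Bcl2 probes nearly coincide.

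In the other genes with several probes no such difference passed the test. It was 0.40 (95% interval 0.10 to 0.70, limma adjusted p = 0.0781) for Bcl2l1 b minus a, 0.07 for Bcl2l1 c minus a (limma adjusted p = 0.878), 0.37 for Mcl1 b minus a (limma adjusted p = 0.114) and 0.27 for Bak1 b minus a (limma adjusted p = 0.419).

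Bid encodes the BH3-only protein that caspase-8 cleaves to link death receptors to mitochondria. It was at 2.30 and 2.21 with phorone and 2.94 and 2.92 in control, with unscaled signals of 2774 and 2656 against 5384 and 5645. The values within each group lay close together, and the log2 fold change was -0.67 (SE 0.12, 95% interval -0.99 to -0.36, limma adjusted p = 0.0110). The call was lost without phorone replicate 2 (limma adjusted p = 0.0753) and with spike-in scaling (log2 fold change -0.24, limma adjusted p = 0.713).

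Bbc3 encodes Puma and Pmaip1 encodes Noxa, both well-known targets of p53. Bbc3 was at 3.03 and 2.93 with phorone and 2.92 and 2.74 in control. The groups did not overlap, but the log2 fold change of 0.15 (SE 0.14, 95% interval -0.20 to 0.50) did not pass the test (limma adjusted p = 0.413). Pmaip1 was not well above background on any array, reading -6.75 and -6.08 with phorone and -7.01 and -7.04 in control, and was not tested.

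Scaling the arrays to their 7 spike-in probes moved the median log2 fold change of all gene probes to 0.54, and that of the member probes to 0.32. The spike-ins stood at 2.74 and 2.56 relative to the 75th percentile on the phorone arrays and 2.76 and 3.41 on the control arrays, so control replicate 2 differed from the other 3. This scaling adds the same amount to every log2 fold change, so positions relative to the median of all are the same under both by construction. Among all gene probes called, 73.4% were higher under spike-in scaling and 55.6% under the main one.

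Around the family, 6 lists of the apoptosis pathway were counted by the brightest probe of each gene. Of their 59 tested genes 12 were higher and 4 lower, and the median log2 fold change was 0.12. Foxo3, among the 12, entered the test only through phorone, where it is high. Of the 58 genes above background in both groups, 11 were higher and 4 lower. Over all 17033 genes the median was 0.08, and 44.9% were called, 23.8% higher and 21% lower. The share of list genes called was smaller than that of all genes, a difference that was not tested.

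Of 8 tested other BCL2 homologues 2 were higher and 1 lower (median 0.03), as at an unadjusted p below 0.05 in limma. Bcl2l15, a little studied homologue, was higher by 2.35 on the log2 scale (SE 0.26, limma adjusted p = 0.00277), at -0.69 ± 0.15 with phorone and -3.04 ± 0.50 in control (SD, n = 2 each). Bcl2l13, a mitochondrial homologue that also acts as a mitophagy receptor, was higher by 0.79 (SE 0.13). Both were called under all 14 alternatives. Bok, an effector-like homologue, changed by -0.48 (limma adjusted p = 0.0297), a call lost under 7 of 14 other settings, among them without any 1 of the 4 arrays (limma adjusted p = 0.0508 to 0.187) and with spike-in scaling (-0.04, limma adjusted p = 0.954).

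Of 10 mitochondrial partners and released proteins 2 were higher and 0 lower in limma (median 0.32), with 4 higher and 0 lower at an unadjusted p below 0.05. Cycs, cytochrome c, which leaves through the pores and starts the apoptosome, was at 5.79 ± 0.03 with phorone and 4.59 ± 0.12 in control (SD, n = 2 each), and was higher by 1.20 (SE 0.13, limma adjusted p = 0.00277). Htra2, a released protease, was higher by 0.44 (limma adjusted p = 0.0426), a call lost under 8 of 14 other settings, among them without control replicate 1 or either phorone replicate (highest limma adjusted p of these 0.196) and with spike-in scaling (0.88, limma adjusted p = 0.140). Opa1, the inner membrane fusion protein that shapes cristae, had a second probe that was higher by 1.16 (SE 0.15) while its brightest was not called (limma adjusted p = 0.985). Mtch2, a receptor for Bid on mitochondria, had a second probe that was lower (-0.63, limma adjusted p = 0.0258) while its brightest stood at 0.41 and was not called. The Mtch2 call was lost without control replicate 2 or either phorone replicate (highest limma adjusted p of these 0.132), with no filter on dim probes, and with spike-in scaling (-0.20, limma adjusted p = 0.762).

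Of 12 genes of the apoptosome, caspases and their inhibitors, 1 was higher and 0 lower in limma (median 0.24), with 2 higher and 1 lower at an unadjusted p below 0.05. Apaf1, the scaffold of the apoptosome, was not called on its brightest probe (limma adjusted p = 0.993), while 2 dimmer probes were higher by 1.91 (SE 0.31) and 0.91 (SE 0.18). The smaller of these calls was lost without phorone replicate 2 (limma adjusted p = 0.0525). Dffa, the inhibitor of the apoptotic nuclease, was higher by 0.45 (limma adjusted p = 0.0443), a call lost under 7 of 14 other settings, among them without control replicate 1 or either phorone replicate (highest limma adjusted p of these 0.191) and with spike-in scaling (0.88, limma adjusted p = 0.138).

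The death receptor branch, which reaches the family through Bid, had 3 of 10 genes higher and 1 lower (median 0.21), or 3 and 3 at an unadjusted p below 0.05 in limma. The lower count was also 3 with normexp correction, where probes had to be above background on all arrays, and without control replicate 2, 2 without control replicate 1, and 0 with spike-in scaling. Tnfrsf10b, the mouse TRAIL receptor, was at 0.20 ± 0.01 with phorone and -1.34 ± 0.05 in control (SD, n = 2 each) and was higher by 1.54 (SE 0.12, limma adjusted p = 0.00124). Tnfrsf12a, the TWEAK receptor, was higher by 1.46 (SE 0.15) and Ripk1, a kinase of the receptor complex, by 0.91 (SE 0.17). The dimmer Ripk1 probes stood at 0.56 and, not called, at 0.17 (limma adjusted p = 0.0267 and 0.322). Fas, the Fas ligand receptor, was lower (-1.11, SE 0.21), except with spike-in scaling, where it stood at -0.68 and was not called.

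Of 11 transcription factors known to act on BH3-only genes 3 were higher and 2 lower (median -0.21), or 3 and 3 at an unadjusted p below 0.05 in limma. One of the 3 higher, Foxo3, entered the test only through phorone, and of the other 10 genes 2 were higher and 2 lower. Without control replicate 1 the list had 4 lower, without control replicate 2 it had 1, and without either phorone replicate 0. Foxo3 was not well above background in control, at -4.31 ± 0.06 with phorone and a measured -5.27 ± 0.08 in control (SD, n = 2 each). In the processed signal it was at least 1.41-fold higher with phorone. After normexp correction its log2 fold change was 0.44, smaller than that bound. Foxo4, dim in both groups, was higher by 0.93 (SE 0.13), and Myc by 0.95 (SE 0.23), which was not called without the filter on dim probes (limma adjusted p = 0.0791). Foxo1 changed by -0.57 (SE 0.13), a call lost under 5 of 14 other settings, among them without control replicate 2 or either phorone replicate (highest limma adjusted p of these 0.132) and with spike-in scaling (-0.14, limma adjusted p = 0.838). Jun changed by -0.45 (SE 0.13), a call lost under 6 of 14 other settings, among them without control replicate 1 or either phorone replicate (highest limma adjusted p of these 0.182) and with spike-in scaling (-0.02, limma adjusted p = 0.981).

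Of 8 tested genes for turnover and tethering of BCL2 family proteins 1 was higher and 0 lower in limma (median 0.09), and the same counts were found at an unadjusted p below 0.05. Usp9x, a deubiquitinase that stabilises Mcl-1, was higher by 1.10 (SE 0.15, limma adjusted p = 0.00524), while its second probe stood at -0.34 and was not called (limma adjusted p = 0.0854). Gsk3b, a kinase that marks Mcl-1 for degradation, had a second probe that was higher by 0.44 (limma adjusted p = 0.0355) while its brightest stood at -0.32 and was not called. That call was lost under 7 of 13 other settings, among them without any 1 of the 4 arrays (limma adjusted p = 0.0620 to 0.187) and with spike-in scaling (0.88, limma adjusted p = 0.141).

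**Figure D4:**
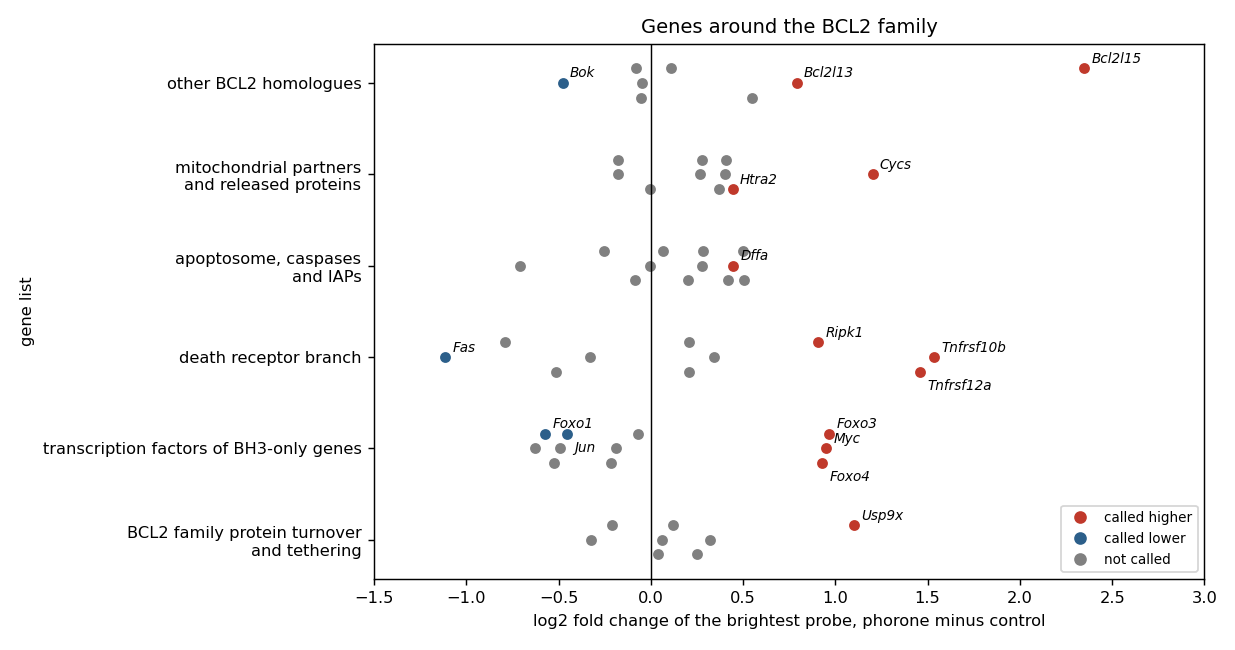
Log2 fold change of each gene's brightest probe, phorone minus control (horizontal axis), for the 6 pathway lists (rows), with 1 point per tested gene and the called genes named. Of the 59 genes 12 were called higher, with Bcl2l15 farthest to the right at 2.35, and 4 lower, with Fas farthest to the left at -1.11. Foxo3, among the 12, was above background with phorone alone and is drawn at its measured value.

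Promoters from 250 bases before to 50 after the start site, from RefSeq's GRCm38.p6 annotation, were searched on both strands for the core of the antioxidant response element, TGACNNNGC, and for a FOXO site, TGTTTAC. For 9 member genes 16 promoters were matched. The first motif was in 1 of the 16, a Bcl2l1 promoter, and in 12.4% of all 32851 promoters. The second was in 2 of the 16, 1 of Bbc3 and 1 of Bcl2l11, and in 3.65% of all. The windows are shown because oxidant and FOXO signalling are known routes to these genes, with the match in capitals, on the gene's own strand. The Bcl2l1 and Bcl2l11 matches are to the reverse complement of the motif.
Bcl2l1, chr2:152828588-152828636, minus strand, match 127 bases before the start: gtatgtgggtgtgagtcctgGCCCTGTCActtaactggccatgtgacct
Bcl2l11, chr2:128125791-128125837, plus strand, match 227 bases before the start: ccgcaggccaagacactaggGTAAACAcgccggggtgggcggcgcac
Bbc3, chr7:16310074-16310120, plus strand, match 167 bases before the start: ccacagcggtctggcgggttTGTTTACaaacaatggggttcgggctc
A match describes letters in a window and no binding. Of the genes with a FOXO match, Bcl2l11 had probes called in both directions and Bbc3 had none called.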

How the data were processed

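RNA of 4 samples was measured on 1 slide in 1 scan. Per the file headers, Agilent Feature Extraction 10.7.3.1 made the deposited processed signal, an intensity after background subtraction that is not scaled between arrays. Log2 values in a second table deposited by the authors differ from the log2 processed signal by one number per array, close to its 75th percentile (column medians -4.37 and -4.30 for phorone, -4.39 and -4.35 for control), so its scale, centring and direction are known.

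Log2 of the processed signal minus each array's 75th percentile was computed, leaving out outlier spots, which removed 111 probes, and averaging spots of a probe. The 75th percentile was 563 and 572 on the phorone arrays and 701 and 747 on the control arrays. A gene probe entered the test if either group had it well above background on both of its arrays, which 24207 did. Names were updated by RefSeq accession (GRCm38.p6), which matched 28136 of 40628 gene probes (69.3%); the others kept the design's name. The test was limma 3.58.1 under R 4.3.3 (two-sided, 2 residual and 3.08 prior degrees of freedom), with Benjamini-Hochberg adjustment over all rows and calls at 0.05; differences between probes of a gene were fitted likewise. The script was tested on simulated data. A probe not above background in one group has a bound: the brighter group's mean against, per array, the higher of the probe's own value and the lowest signal well above background. The bound applies to the processed signal alone and takes no account of spread. The number of arrays limits the precision.

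Members with a called probe or with probes that disagree are described in full. In other lists up to 3 called genes each way are named, with genes whose other probe was called against the sign of the brightest. The members and lists were chosen with earlier results of these data known, and so support nothing by themselves. 1 gene of a pathway list is not reported here.

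Alternatives were normexp background correction (offset 50), quantile, median and spike-in scaling, other filters, leaving out each array, a replicate block, noncoding probes in the fit, the authors' table, and 1 probe per gene.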

Additional observations from a re-analysis of the deposited data

How the results depend on the processing

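Of the values of member probes under other settings, 206 kept direction and side of the threshold, 10 lost and 4 gained a call, and 9 turned sign; of differences between probes of a gene, 59 kept both, 7 lost and 1 gained a call, and 4 turned sign. The cause was not tested. Spike-in scaling gave 1608 gene probes lower (main 4919), 2 member probes lower (main 5) and 0 pathway genes lower (main 4; 0 also at an unadjusted p below 0.05 in limma). With no filter on dim probes, 3823 gene probes were higher (main 6168), 3 member probes and 1 pathway gene lower, and 810 probe pairs called (main 1539). Pathway genes lower numbered 8 with normexp correction and 8 where probes had to be above background on all arrays. With 1 probe per gene, 0 member probes were higher (main 1), since Bcl2l11 b is not the brightest. Leaving out each array gave 3502 to 5819 gene probes higher, 1 to 7 pathway genes lower, and 0 to 1426 pairs called.

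Signs turned only in values that were not called, save Bmf c minus a (normexp 0.99): Bcl2l1 c (normexp 0.16, spike-in 0.39, leaving out an array -0.45 to 0.36), Bcl2l1 a (spike-in 0.32, leaving out an array -0.40 to 0.16), Mcl1 a (spike-in 0.14), Bak1 a (quantile -0.003, leaving out an array -0.19 to 0.28), Bcl2 b minus a (leaving out an array -0.16 to 0.23) and Bcl2l1 c minus a (leaving out an array -0.23 to 0.37).

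Same-numbered arrays share a slide column, and the labels do not say whether the numbers pair the samples. The deviations of same-numbered arrays correlated at -0.04, which with 2 arrays per group cannot settle it. With the replicate block, 40.3% of gene probes were called (main 45.8%); Bcl2 a lost its call (limma adjusted p = 0.0533), Bmf b gained one (limma adjusted p = 0.0461), Bmf b minus a gained one (limma adjusted p = 0.0390) and Bmf c minus a lost it (limma adjusted p = 0.0557). Signal near background limits Bcl2l1 c, Bmf b, Bmf c and Pmaip1.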
